A study of Mus musculus with 8 samples.

Results

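Transcripts and m6A peaks of core splicing factors were described in N2a, a neuroblastoma cell line from mouse. The gene knocked down was Emg1, whose protein methylates 18S ribosomal RNA. The members were selected on gene name alone, with no value of expression in the rule: Sf1 and the genes whose symbols begin with Snrp, Sf3a or Sf3b with a digit, U2af, Srsf with a digit or Hnrnp, without Hnrnpa2b1. They numbered 55 of the 16279 genes in the table of input RNA, namely 12 snRNP, 9 SF3, 4 Sf1 and U2af, 11 SR and 19 hnRNP genes. On 25 of them lay 28 of the 2114 peaks in the list of differential m6A peaks. Cells were transfected with siRNA targeting Emg1 (siEmg1) or a control siRNA (siCtrl) and harvested at 48 h, and the groups were siEmg1 m6A immunoprecipitation (IP), siEmg1 input, siCtrl m6A IP and siCtrl input, with 2 libraries each. All were poly(A) RNA of cells grown in serum, and the knockdown was transient. The peak list held only peaks that the authors had found to change, so member peaks were selected on their change, and their presence, sign and size are descriptions here. Neither table gave values per library, so the spread between libraries was known only through the standard error (SE) and adjusted p of the authors' test, and depth per library was unknown.

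Splicing removes introns in steps. The U1 small nuclear ribonucleoprotein (snRNP) marks the start of an intron, while the proteins SF1 and U2AF mark the branch point and the end of it; the U2 snRNP, carrying the SF3A and SF3B complexes, then takes the branch point over from SF1. SR proteins mostly promote the use of exons they bind, and heterogeneous nuclear ribonucleoproteins (hnRNPs) often repress it. Splicing factors meet m6A, the methylation of adenosine inside mRNA, at several points: in human cells HNRNPC binds RNA opened up by m6A, and the nuclear reader YTHDC1 recruits SRSF3 and keeps SRSF10 away from nearby exons. Many SR and hnRNP genes also regulate their own mRNA through exons that lead to its decay.

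Emg1 was at 30.2% of control in siEmg1 input RNA in the authors' deposited table (log2 fold change -1.73 ± 0.11, SE, adjusted p = 3.37e-54). The table states no direction, and fold changes are read as siEmg1 over siCtrl because of this value. Of 12 neuroblastoma markers, 11 had a mean normalized count of at least 100, with Dbh at 42.6, against 2 of the 10 markers of other cell types with a value (Col1a2, Ptprc and Epcam had none here), Pecam1 at 407 and Mbp at 688. The 12 neuroblastoma markers summed to 65519 and the 10 others to 1286. The markers of other cell types had no value per group here, and their part in the results was not tested.

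More core splicing factor transcripts rose than fell, and 9 of the 16 that rose did so by at least 1.2-fold. An adjusted p was given for 53 members (all but Snrpn and Srsf12), and at an adjusted p under 0.05 by DESeq2, 16 were higher in siEmg1 cells and 2 were lower, where 17.1% of the 12807 genes tested were higher and 15.5% lower. At an unadjusted p under 0.05 the counts were 20 and 2. These 53 had a median log2 fold change of 0.14, and 45 of them had a positive one, beside a median of -0.0023 over all genes tested. Members were measured more precisely than most genes, since their median mean count was 4212 against 598 for all genes. Among genes with a mean count of at least 2000, 28.9% were higher and 20.8% lower, and of the 44 members in that range 14 (31.8%) were higher and 2 (4.55%) lower. The share of higher members was thus near that of equally abundant genes, and the share of lower members was below it. In bulk RNA, a change in how many cells carry a transcript and a change in its amount per cell cannot be told apart.

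**Figure D1:**
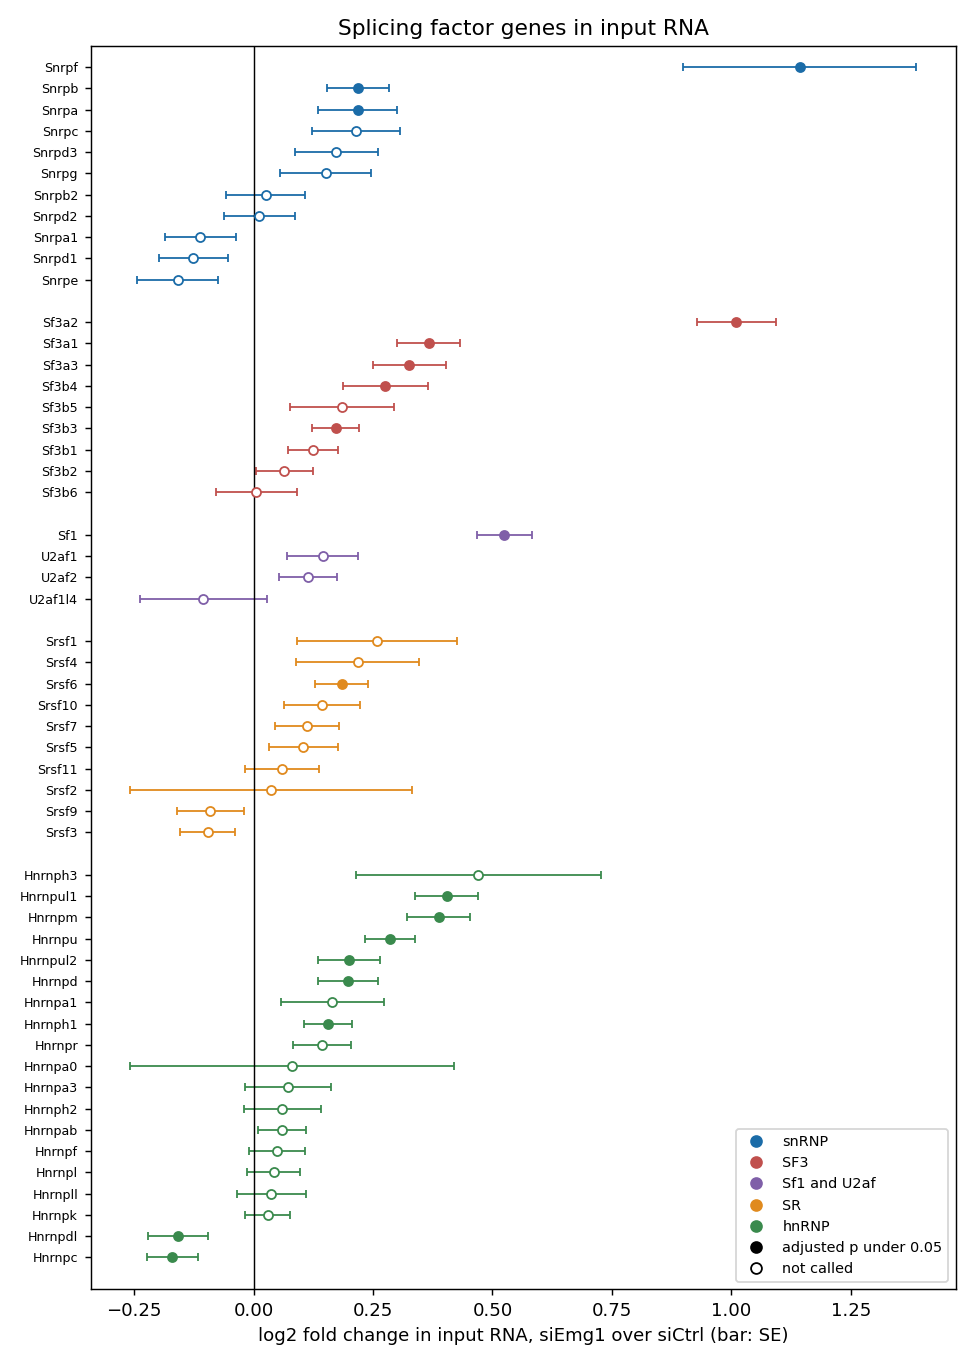
Log2 fold change in input RNA (siEmg1 over siCtrl, x axis) of the 53 members with an adjusted p, from the authors' deposited table, one row per gene and coloured by group; bars are the SE, and filled points have an adjusted p under 0.05. Snrpf and Sf3a2 stand at 1.14 and 1.01, all 9 SF3 genes lie above 0, and Hnrnpc and Hnrnpdl are the only filled points below 0.

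Each group had at least 1 called member, but for most groups the share of higher genes was near that of abundant genes. SF3 genes were higher in 5 of 9 cases (median log2 fold change 0.18), hnRNP genes higher in 6 and lower in 2 of 19 (median 0.08), and snRNP genes higher in 3 of the 11 with an adjusted p (median 0.15). One of the 4 Sf1 and U2af genes was higher (median 0.13), and 1 of the 10 SR genes with an adjusted p (median 0.11). Among all genes with a mean count of at least 2000, 28.9% were higher and 20.8% lower. The shares of higher snRNP, hnRNP, and Sf1 and U2af genes were near that 28.9%. The SF3 share was above it and the SR share below it. Among the SR genes, Srsf1 and Srsf2 had an unusually wide SE, given below, which made a call of them less likely. The share of lower hnRNP genes was below 20.8%. Every group also holds genes under that mean, so these are not matched shares. With Snrpn included the snRNP median was 0.09, and over snRNP genes with a mean count of at least 2000 it was 0.02. No test of the difference between groups was made.

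Among the snRNP genes the largest change was in the Sm ring, the set of small proteins that encircles the U snRNAs. Snrpf, which encodes its subunit F, rose by 1.14 ± 0.24 (log2, SE, adjusted p = 2.75e-05) in the authors' deposited table, on a mean count of 267. Its RefSeq span overlaps that of Ccdc38, which was at 0.08 ± 0.14 on a mean count of 631 in the authors' deposited table. Snrpf thus had a lower mean count than this neighbour, and the other ring genes had means from 1690 to 7528. Whether reads of Snrpf were lost or counted elsewhere was not tested. Snrpb, for subunit B, rose by 0.22 ± 0.06 (adjusted p = 0.00384) in the authors' deposited table. The other ring genes did not pass: Snrpd3 and Snrpg were at 0.17 ± 0.09 and 0.15 ± 0.10, Snrpd2 at 0.01 ± 0.07, and Snrpd1 and Snrpe at -0.13 ± 0.07 and -0.16 ± 0.08 in the authors' deposited table. The ring genes therefore had fold changes of both signs. Sm protein genes have many processed pseudogenes, and how reads shared with them were counted was not given in the sources used here.

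Of the proteins particular to U1, the RNA-binding protein gene Snrpa rose by 0.22 ± 0.08 (adjusted p = 0.0281), and Snrpc, whose protein helps U1 pair with the splice site, was close to it in size at 0.21 ± 0.09 (adjusted p = 0.0613), by the authors' deposited table. Of the proteins particular to U2, those of the snRNP group showed no call, with Snrpa1 at -0.11 ± 0.07 and Snrpb2 at 0.03 ± 0.08 in the authors' deposited table. SF3A and SF3B, which U2 also carries, had calls and are given below. Snrpn, for a neural Sm protein made from a transcript shared with Snurf, had a mean count of 5.28 and no adjusted p.

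At the end of the intron, the branch point factor passed and the U2AF genes did not. Sf1, which encodes the first binder of the branch point, rose by 0.53 ± 0.06 (adjusted p = 6.86e-18) in the authors' deposited table. The U2AF subunit genes did not pass: U2af1, which reads the terminal AG, was at 0.14 ± 0.07 (adjusted p = 0.125), and U2af2, which binds the pyrimidine tract, at 0.11 ± 0.06 (adjusted p = 0.143), by the authors' deposited table. U2af1l4, a relative of U2af1, was at -0.11 ± 0.13 in the authors' deposited table.

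All 3 genes of SF3A, the complex that ties SF3B to the U2 snRNP, were higher. Sf3a2 had the smallest adjusted p of all members, 2.62e-31, with 2.01-fold its control level (1.01 ± 0.08, log2, SE) in the authors' deposited table. Its downstream neighbour Amh lies 317 bases away (RefSeq, GRCm38.p6, chromosome 10, 80798735 to 80804922 for Sf3a2 and 80805240 to 80807679 for Amh). Amh was at 2.07 ± 0.71 on a mean count of 22.4, with no adjusted p, and Plekhj1, at its other side, was at -0.13 ± 0.11 in the authors' deposited table. Sf3a1 rose by 0.37 ± 0.07 (adjusted p = 4.93e-07) and Sf3a3 by 0.33 ± 0.08 (adjusted p = 0.000179) in the authors' deposited table.

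In SF3B, whose largest subunit holds the branch point adenosine, 2 of the 6 genes taken by the member rule passed. Sf3b4 rose by 0.28 ± 0.09 (adjusted p = 0.00848) and Sf3b3 by 0.17 ± 0.05 (adjusted p = 0.00316) in the authors' deposited table. Sf3b1, which encodes that largest subunit and is the target of branch point inhibitors, was at 0.12 ± 0.05 with an adjusted p of 0.0545 in the authors' deposited table. Sf3b5 was at 0.18 ± 0.11, Sf3b2 at 0.06 ± 0.06, and Sf3b6, whose protein touches the branch point, at 0.01 ± 0.08 in the authors' deposited table.

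Of the SR protein transcripts, 1 of 10 passed, also at an unadjusted p under 0.05. It was Srsf6, at 0.18 ± 0.06 (adjusted p = 0.00415), by the authors' deposited table. Srsf3 and Srsf10, the pair placed on opposite sides of the m6A reader YTHDC1, were at -0.10 ± 0.06 (adjusted p = 0.205) and 0.14 ± 0.08 (adjusted p = 0.164), by the authors' deposited table. Srsf4, Srsf7, Srsf5 and Srsf11 were at 0.22 ± 0.13, 0.11 ± 0.07, 0.10 ± 0.07 and 0.06 ± 0.08, and Srsf9 at -0.09 ± 0.07 in the authors' deposited table. Srsf12 had a mean count of 3.33 and no adjusted p.

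Among hnRNP genes the whole U family was higher. Hnrnpul1 rose by 0.40 ± 0.07 (adjusted p = 2.55e-08), Hnrnpu, whose protein ties RNA to chromatin, by 0.29 ± 0.05 (adjusted p = 1.06e-06), and Hnrnpul2 by 0.20 ± 0.06 (adjusted p = 0.00897) in the authors' deposited table. Hnrnpm, for a binder of GU-rich RNA, rose by 0.39 ± 0.07 (adjusted p = 8.03e-08) in the authors' deposited table. Smaller rises were those of Hnrnpd, whose protein binds AU-rich elements of unstable mRNAs, at 0.20 ± 0.06 (adjusted p = 0.00783), and of Hnrnph1, for a binder of G-rich tracts, at 0.16 ± 0.05 (adjusted p = 0.00868), by the authors' deposited table.

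Both members that fell were hnRNP genes. Hnrnpc, which binds uridine tracts and keeps buried exons silent, fell by 0.17 ± 0.05 (adjusted p = 0.00718) in the authors' deposited table. Hnrnpdl fell by 0.16 ± 0.06 (adjusted p = 0.0378), the opposite sign to its relative Hnrnpd, in the authors' deposited table. Hnrnpr missed the threshold narrowly, at 0.14 ± 0.06 with an adjusted p of 0.0528 in the authors' deposited table. The remaining 10 hnRNP genes did not pass either: Hnrnph3 was at 0.47 ± 0.26 on a mean count of 157, Hnrnpa1 at 0.17 ± 0.11, and Hnrnpa0, Hnrnpa3, Hnrnpab, Hnrnpf, Hnrnph2, Hnrnpk, Hnrnpl and Hnrnpll lay between 0.03 and 0.08 in the authors' deposited table. The A-type members (Hnrnpa0, Hnrnpa1, Hnrnpa3 and Hnrnpab), the L pair and Hnrnpk thus had 0 calls by DESeq2, and 0 of these 7 had an unadjusted p under 0.05. This does not hold for Hnrnpa2b1, an A-type gene that the member rule left out. DESeq2 called Hnrnpa2b1 higher, with a log2 fold change of 0.23, an SE of 0.05 and an adjusted p of 7.1e-05. Its mean count was 24633, and it had 1 listed peak. The hnRNP A1 gene and its relatives have many pseudogenes too, and how many reads they shared with these was not measured here. The RefSeq spans of 15 of the 55 members overlap another protein-coding gene, and whether strand was used in counting was not given in the sources used here. Srsf2 is one, overlapping Mfsd11, which was at -0.34 ± 0.10 in the authors' deposited table.

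For 3 members the lack of a call came with an unusually wide error. The SE of Hnrnpa0 was 0.34 in the authors' deposited table, 4.60 times the median of 0.0736 among 3212 genes whose mean count was within 2-fold of its own, and 2 of those genes, itself included, had an SE as large. Srsf2 had an SE of 0.30 in the authors' deposited table, 4.73 times the median of such genes, and no other of 1319 reached it. Srsf1, the founding SR protein gene, had an SE of 0.17 in the authors' deposited table, 2.96 times the median. The other 52 members were between 0.88 and 1.26 times theirs. An SE of at least 2 times the median was rare, at 87 of 11134 genes with a mean count of at least 100 (0.781%). These 3 transcripts, at 0.08, 0.04 and 0.26 in the authors' deposited table, could therefore have changed by more than most members without being called. Wide errors were not particular to members: of other splicing regulators, Mbnl1 had an SE of 0.22 on a mean count of 5397, and Pcbp1 of 0.20 on 6571. Whether single libraries lay behind the wide SE could not be examined without values per library.

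**Figure D2:**
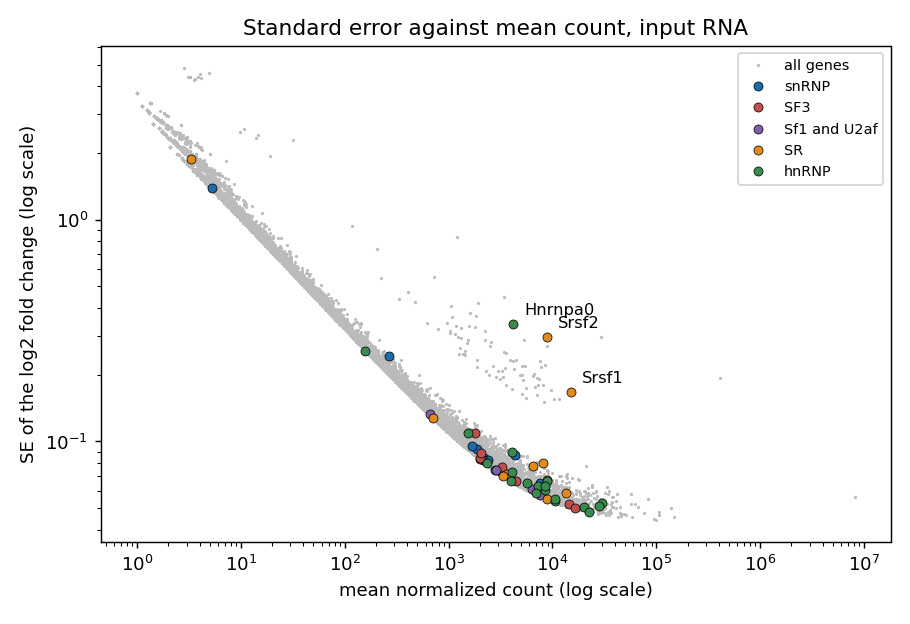
SE of the log2 fold change (y axis, log scale) against the mean normalized count (x axis, log scale) for all genes in grey and the 55 members in colour, from the authors' deposited table. Hnrnpa0, Srsf2 and Srsf1 lie in a sparse band above the main curve, at 0.34, 0.30 and 0.17, and the other members lie on the curve.

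Differential m6A peaks on the members mostly had a negative change. No numerator is named for this change, so its sign is given as deposited and not as gain or loss. Of 28 peaks, 24 were negative and 4 positive, where 53.1% of all listed peaks were negative. A listed peak was present on 25 of the 55 members (45.5%), against 11.7% of all genes in the table and 24.9% of those with a mean count of at least 2000. Of the 44 members in that range, 22 had one. The sign of listed peaks differed with the mean count of the gene, though not in a steady rise. Negative were 88% of the 25 peaks at means under 100 and 34% at 100 to 1000. The share was 32.8% at means of 1000 to 2000, 58.2% at 2000 to 5000 and 84.2% at 5000 and over. Of 25 member peaks on genes with a mean of at least 2000, 21 were negative (84.0%), beside 68.8% of all such peaks. In the highest class, which holds 16 of the 28 member peaks, 13 were negative, near the share of all listed peaks there. In the lower classes members were above that share. Negative were 8 of 9 member peaks at means of 2000 to 5000, 2 of 2 at 1000 to 2000 and 1 of 1 at 100 to 1000.

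**Figure D3:**
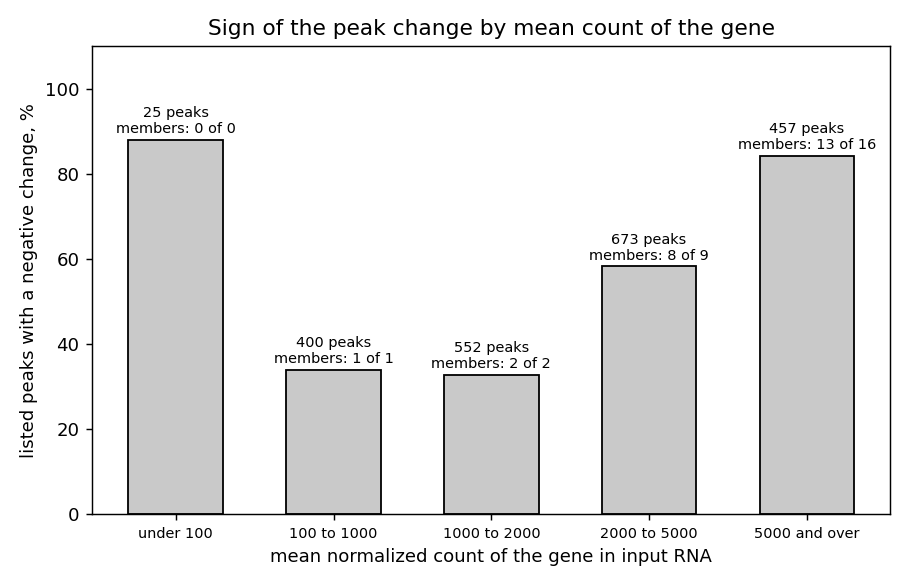
Share of all listed m6A peaks with a negative change (y axis, percent, from 0) by mean normalized count of the gene in input RNA (x axis, classes), with the number of all listed peaks and the number of negative among member peaks written above each bar. The share is 84.2% at means of 5000 and over, where 13 of 16 member peaks are negative.

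By group, all 14 peaks on hnRNP genes, all 4 on snRNP genes and both on Sf1 and U2af2 were negative. The 4 positive peaks were on SF3 genes (2 of 5) and SR genes (2 of 3). On SR genes, Srsf5 had a change of 0.66, Srsf6 of 0.42 and Srsf4 of -0.74 in the authors' deposited table. On SF3B genes, Sf3b1 and Sf3b3 had 0.48 and 0.43, and Sf3b4 and Sf3b5 had -0.57 and -0.63 in the authors' deposited table. The false discovery rates of the positive peaks were among the weaker ones, with log10 values between -6.74 and -3.14.

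The most negative change was on Hnrnpll, for a regulator of alternative splicing best known in lymphocytes, at -3.13 (mm10, chr17:80061790-80061999, minus strand) in the authors' deposited table. Hnrnpab followed at -2.49 (chr11:51606731-51606881) and Hnrnpu at -2.16 (chr1:178337396-178337575) in the authors' deposited table. All 3 had low fold enrichments of IP over input, 1.52, 1.65 and 1.42, where the median of all listed peaks was 5.525. Hnrnpa0 had -1.58 with a fold enrichment of 4.63 in the authors' deposited table. U2af2 had -1.72 (chr7:5062202-5066506, 2 blocks), with a fold enrichment of 2.02 in the authors' deposited table. Peaks in several blocks cross splice junctions, and whether a block lay in coding sequence was not analysed here.

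The lowest false discovery rate of a member peak was on Hnrnpm. Its peak at the gene start (chr17:33666663-33685458, minus strand, 6 blocks, 537 bases) had a change of -1.78, a fold enrichment of 7.82 and a log10 false discovery rate of -269 in the authors' deposited table, rank 8 of 2114. A second Hnrnpm peak (chr17:33650188-33658451, 3 blocks) had -0.96 with a fold enrichment of 1.60 in the authors' deposited table. Hnrnpu and Hnrnpul2 also carried a pair of peaks each. The other Hnrnpu peak had -0.32, and those of Hnrnpul2 had -0.96 and -0.74 in the authors' deposited table. Hnrnph1 and Hnrnpk had -0.96 and -0.74, with log10 false discovery rates of -91.8 and -51.1 in the authors' deposited table. Hnrnpul1, Hnrnpr and Hnrnpdl had -1.18, -0.72 and -0.72 in the authors' deposited table. Sf1 had -0.46, with the second highest fold enrichment of a member, 7.54, in the authors' deposited table. Over all member peaks the median fold enrichment was 2.295, and 11 of 28 (39.3%) were under 2, against 15.8% of all listed peaks. Member peaks were therefore less enriched than the list as a whole.

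All 4 snRNP peaks and 3 of the 5 SF3 peaks began exactly at an annotated start. The distance is that of a peak's first base from the nearest RefSeq start (GRCm38.p6, the mm10 build). All 4 snRNP peaks and 4 of 5 SF3 peaks began within 50 bases of a start, as did 4 of 14 hnRNP peaks and none of the 2 on Sf1 and U2af2 or the 3 on SR genes. In all, 12 of 28 member peaks did so (42.9%), beside 15.4% of the 2026 listed peaks placed on their gene. Within negative changes the share was 11 of 24 (45.8%), beside 26.8% of all listed ones and 25.4% of those on genes with a mean of at least 2000. Peaks at starts were nearly always negative in the whole list, 288 of 312 (92.3%), so sign and place went together here too. The exception among members was Sf3b1, whose positive peak began 30 bases from the start. The Sf3b3 peak began 35893 bases away, near the end of the gene. The Sf3b5 peak covered its whole span of 734 bases, so its place says nothing, though it is counted above. The Snrpd2 and Snrpd3 peaks, in 3 blocks each, also reached far along their genes. Their midpoints lay at 52.8% and 40.9% of the span.

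**Figure D4:**
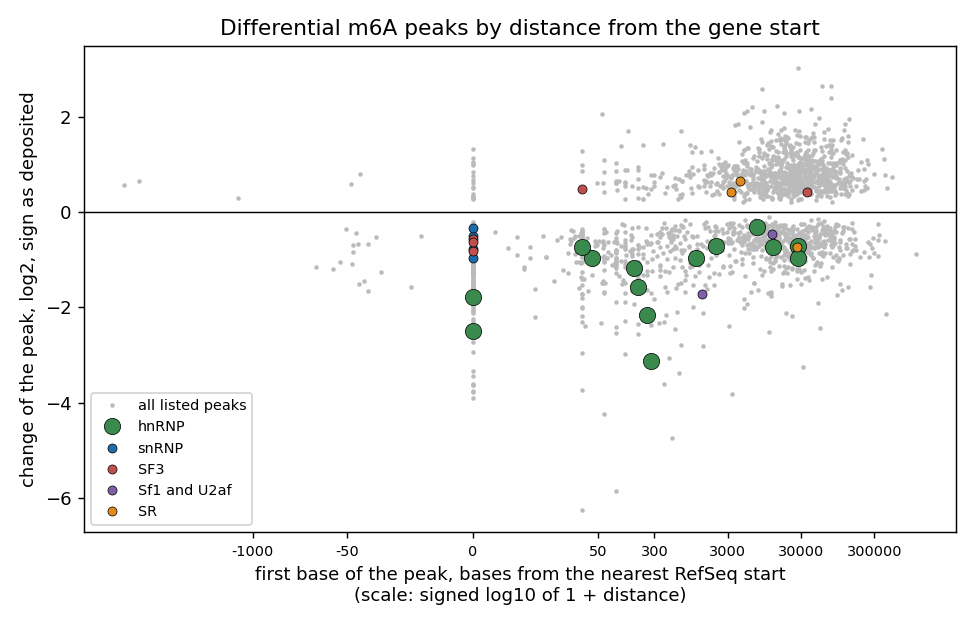
Change of each listed m6A peak (y axis, log2, sign as deposited) against the distance of its first base from the nearest RefSeq start (x axis, bases, on a signed log scale), with all placed peaks in grey and member peaks in colour, hnRNP points drawn larger. The 9 member peaks exactly at a start are all negative, and the positive member peak nearest a start, on Sf3b1, is at 30 bases.

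Exactly at an annotated start began 9 member peaks, those on Snrpb2, Snrpc, Snrpd2, Snrpd3, Sf3a3, Sf3b4, Sf3b5, Hnrnpab and Hnrnpm. Such an exact match can only be as good as the annotation the peaks were called on, which was not given in the sources used here. For 7 of them RefSeq (GRCm38.p6) gives the sequence around the start, shown here because the peak lies on it. Each run is the gene's strand, from 60 bases before the start; the capitals are the first 30 bases of the transcript, all inside the peak.
Snrpb2: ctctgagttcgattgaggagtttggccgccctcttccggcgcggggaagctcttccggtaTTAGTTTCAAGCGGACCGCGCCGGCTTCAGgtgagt
Snrpc: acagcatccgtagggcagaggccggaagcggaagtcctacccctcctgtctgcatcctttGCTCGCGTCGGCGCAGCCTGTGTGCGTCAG
Snrpd2: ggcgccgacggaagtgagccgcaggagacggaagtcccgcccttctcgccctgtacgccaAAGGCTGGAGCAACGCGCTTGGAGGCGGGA
Snrpd3: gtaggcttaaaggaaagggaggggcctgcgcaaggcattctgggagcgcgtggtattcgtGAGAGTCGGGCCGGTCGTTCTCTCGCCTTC
Sf3a3: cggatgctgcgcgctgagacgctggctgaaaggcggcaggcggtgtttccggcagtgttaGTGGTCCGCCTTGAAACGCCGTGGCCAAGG
Hnrnpab: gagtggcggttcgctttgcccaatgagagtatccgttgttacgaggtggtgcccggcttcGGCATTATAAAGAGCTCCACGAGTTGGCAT
Hnrnpm: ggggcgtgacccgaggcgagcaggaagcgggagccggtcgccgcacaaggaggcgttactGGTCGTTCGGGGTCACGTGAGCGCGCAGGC

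These lie at chr2:143063009-143063104, chr17:27840027-27840116, chr7:19149778-19149867, chr10:75517982-75518071 and chr4:124714801-124714890 on the plus strand, and at chr11:51606852-51606941 and chr17:33685429-33685518 on the minus strand. On Snrpb2 the first block of the peak is 30 bases long and is followed by GTGAGT, the letters of a common 5′ splice site, so the edge of that block falls where an exon could end. The core letters of the usual m6A site, GGAC, searched on the transcript strand in the first 50 bases, were present in 1 of these 7 windows (Snrpb2) and in 18.9% of all 32851 RefSeq promoter windows. The first base was A in 1 of 7 (Snrpd2), in 34.4% of all windows and in 28.0% of windows of genes with any listed peak exactly at a start. Over the whole 300-base windows, CCGGAAG, the motif of ETS-family factors, was found on either strand in 21 of 65 windows of the 48 members with one (32.3%). It was found in 29.0% of windows of genes with any listed peak exactly at a start, in 19.5% of windows of genes with a mean count of at least 2000 and in 8.86% of all. A match is only a description of the letters.

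Input change and peak sign were set side by side for the 25 members with a peak. Of 21 with only negative peaks, at any mean count, 8 were higher and 1 was lower in input. Of all 973 tested genes with only negative peaks, 382 were higher and 122 lower. Of the 658 such genes with a mean count of at least 2000, 287 were higher and 88 lower. The 8 were Sf1, Sf3a3, Sf3b4, Hnrnpm, Hnrnpu, Hnrnpul1, Hnrnpul2 and Hnrnph1, and the 1 was Hnrnpdl. Of the 4 with positive peaks, Srsf6 and Sf3b3 were higher in input. Of the 28 tested members without a listed peak, 6 were higher (21.4%) and 1 lower (3.57%). Of the 22 of them with a mean count of at least 2000, 4 were higher (18.2%) and 1 lower (4.55%). Among the 2962 genes in that range without a listed peak, 25.7% were higher and 22.3% lower. The shares of these 22 members rest on 4 genes and 1 gene, and their difference from those of such genes was not tested. The largest rises, those of Sf3a2 and Snrpf, were among the 28 members, on mean counts of 1996 and 267. Whether the peak change was computed with the input libraries was not given in the sources used here.

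Other genes of splicing, listed by complex and not by the member rule, also rose more often than they fell: of 162 with an adjusted p, 58 were higher (35.8%) and 13 lower (8.02%), beside 17.1% and 15.5% of all genes tested. Of the 104 with a mean count of at least 2000, 42.3% were higher and 6.73% lower, beside 28.9% and 20.8% of all genes in that range. Among other U snRNP proteins 14 of 35 were higher and 3 lower, including the U5 helicase gene Snrnp200 at 0.50 ± 0.06, the catalytic scaffold gene Prpf8 at 0.41 ± 0.05 and the U1 gene Snrnp70 at 0.44 ± 0.06 in the authors' deposited table. SR-related proteins and SR kinases were higher in 12 of 25 cases and lower in 1, led by Scaf1 at 0.74 ± 0.09, Srrm1 at 0.44 ± 0.06 and Pnn at 0.43 ± 0.07 in the authors' deposited table. The SR genes themselves had 1 call among 10, with Srsf1 and Srsf2 measured less precisely than genes of similar mean count. This difference was not tested.

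The catalytic and Prp19 complex list had 7 higher (26.9%) and 4 lower (15.4%) of 26. Its scaffold ubiquitin ligase gene Prpf19 fell by 0.57 ± 0.06 (adjusted p = 4.21e-18) in the authors' deposited table, while Xab2 and Dhx38 rose by 0.46 ± 0.07 and 0.44 ± 0.07 in the authors' deposited table. Of 46 further hnRNP-type and alternative splicing regulators, 15 were higher and 5 lower. The polypyrimidine tract proteins went opposite ways: Ptbp2, the form favoured in neurons, rose by 0.87 ± 0.07 (adjusted p = 2.56e-32) and Ptbp1, which represses the splicing of Ptbp2, fell by 0.48 ± 0.06 (adjusted p = 9.4e-16) in the authors' deposited table.

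For snRNP assembly and mRNA surveillance, 33.3% of genes were higher in each list, beside 17.1% of all genes tested. Among all genes with a mean count of at least 2000 it was 28.9%. Both lists also hold genes under that mean, so the 28.9% is not a matched share. In the SMN complex and assembly list 5 of 15 were higher and 0 lower, with Gemin5, which recognises snRNAs, at 0.43 ± 0.07, the arginine methyltransferase gene Prmt5 at 0.32 ± 0.08 and Gemin4 at 0.32 ± 0.10, all from the authors' deposited table. In the exon junction and nonsense-mediated decay list 5 of 15 were higher and 0 lower, with the helicase gene Upf1 at 0.53 ± 0.07 and Casc3 at 0.35 ± 0.07 in the authors' deposited table. At an unadjusted p under 0.05, DESeq2 gave 6 higher and 0 lower in the SMN list and 7 higher and 0 lower in the decay list. On these 6 lists lay 49 listed peaks, 39 negative (79.6%) and 10 positive, where 53.1% of all listed peaks were negative. On list genes with a mean count of at least 2000, 37 of 41 were negative (90.2%), beside 68.8% of all such peaks.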

How the data were processed

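Poly(A) RNA from m6A IP and input was sequenced from stranded libraries, per the labels' protocols. Trimmomatic, HISAT2, DESeq2 and the mm10 build are named in the submitters' processing notes; no read counter, annotation or peak caller was found in the sources used here. Of the input table, the mean normalized count is a signal deposited by the authors, the fold change with its SE is a deposited log2 value, and the authors also deposited the Wald score, a p-value and an adjusted p-value. Of the peak list, the fold enrichment is a ratio deposited by the authors, the change is a deposited log2 value, and its false discovery rate is a deposited score on the log10 scale, at most 0.0282.

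Depth per library is unknown. Calls used the authors' adjusted p under 0.05 over the whole table, without refitting. Nothing in the labels says that libraries came from separate cultures, so p-values measure the spread between libraries, which may be technical. The members, their groups and the lists were chosen with earlier results of these data known; no list was tested. All members are named: values were given for up to 5 per group with the smallest adjusted p, those with peaks and the extremes, and of the other lists for up to 3 called genes with the smallest adjusted p, of which some are not reported here. All members had a RefSeq span of that build, and 48 had a promoter window, from 250 bases before the start. The minimum mean of 2000, the distance from a start and the motifs were chosen after seeing the data. Recomputed adjustments were tested on simulated data. Computation was in Python 3.11.15 with pandas 2.3.3 and numpy 2.4.6; matplotlib 3.10.9 and scipy 1.17.1 served for plots and p-values.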

Additional observations from a re-analysis of the deposited data

How the results depend on the processing

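No paired analysis was possible because the tables hold no values per library; for the same reason no library was left out and no count model was run. Asking for at least a 1.2-fold change left 9 members higher and 0 lower (snRNP 1 higher, SR 0 higher, hnRNP 3 higher and 0 lower). At an adjusted p under 0.01, 1 member was lower, Hnrnpc of the hnRNP group, and the calls of Snrpa and Hnrnpdl ended; at 0.1, Snrpc, Sf3b1 and Hnrnpr were added. Adjustment over every gene, centring on the median (0.01) and a minimum mean of 100 changed no call of a member. The 13 other splicing genes that were lower became 7 at an adjusted p under 0.01, 8 at 1.2-fold and 7 at a mean of at least 2000. Weighting by the inverse of the squared SE gave Sf1 and U2af 0.26 in place of the median 0.13, and snRNP 0.07 in place of 0.09 over all 12. With a fold enrichment of at least 2, 15 negative and 2 positive peaks were left (hnRNP 7 negative, SF3 1 and SR 1 positive), and at a mean of at least 2000 SR genes had 0 negative peaks. Widening the distance from a start to 300 bases gave 16 member peaks, and an exact match 9.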
